A study of Mus musculus with 9 samples.

Results

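The sebaceous gland genes described here are 10 genes of sebum lipid synthesis and of the cells that make sebum: Awat1, Awat2, Dgat2l6, Far2, Soat1, Scd3, Elovl3, Mc5r, Krt79 and Prdm1. They were chosen by name, as every probe annotated AWAT1, AWAT2, DGAT2L6, FAR2, SOAT1, SCD3, ELOVL3, MC5R, KRT79 or PRDM1 in any case, and each gene had 1 probe. The 10 probes were part of 26423 probes on the array, and the 10 genes part of 17742 named genes. Levels were read on 9 single-colour arrays of RNA from female BALB/c mice, in 3 groups of 3 arrays. Vanillin mice received imiquimod on the shaved back together with oral vanillin at 100 mg/kg, IMQ mice received imiquimod alone, and mock mice received Vaseline, each for 7 days. Imiquimod activates toll-like receptor 7 and is used to induce psoriasis-like inflammation in mouse skin, and vanillin is the main aroma compound of vanilla. The labels name no oral vehicle for the IMQ and mock mice, and no group that received vanillin without imiquimod. Whether each array came from its own mouse is not stated. A p-value here rests on the spread of arrays within groups of 3, estimated over all 3 groups together and moderated by the spread of all probes. That spread could be technical.

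Median intensities of the arrays lay between 629 and 631, and 3 arrays per group set the limit of precision throughout. Across probes, arrays of the same group correlated at 0.984 to 0.996 in log2 intensity and arrays of different groups at 0.952 to 0.980; probes of an array are not independent. The tissue is labelled skin, while the extraction text names muscle. The basal and spinous keratinocyte markers had a median percentile of 99.6 among all probes by mean level, and the skeletal muscle markers one of 98.7, so transcripts of both tissues were measured. The values are those of bulk tissue, in which fewer cells of a type and less RNA per cell cannot be told apart.

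Sebaceous glands open into the upper hair follicle. Their cells, the sebocytes, fill with lipid as they mature and then burst to release sebum, which in mice is rich in wax esters, triglycerides and sterol esters. A wax ester is built from a fatty acid, which desaturases and elongases shape, and a fatty alcohol, which fatty acyl-CoA reductases make. Acyltransferases then join them. The melanocortin receptor Mc5r acts in sebaceous and other exocrine glands, and mice without it make less sebum lipid.

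Awat1, Awat2 and Dgat2l6 are relatives within the DGAT2 acyltransferase family, and they lie close together on the X chromosome. In the reference gene table the order is Awat2, Otud6a, Igbp1, Dgat2l6 and Awat1. The upstream sequences of 5 genes are given because their levels fell into contrasting patterns: Awat1 and Awat2, which differed from mock skin in opposite directions with vanillin, Scd3, whose levels followed those of Awat2, and Soat1 and Far2, which were highest in IMQ skin. Each is the 250 bases before a transcript start in RefSeq, build GRCm38.p6, written 5′ to 3′ on the strand of the gene. Such windows were taken for 8 of the 10 genes. Capitals mark a match to CCAAT, a common core promoter motif, on either strand. Awat2 has 2 annotated starts and is shown at each.
Awat1, chrX:100571997-100572246, plus strand: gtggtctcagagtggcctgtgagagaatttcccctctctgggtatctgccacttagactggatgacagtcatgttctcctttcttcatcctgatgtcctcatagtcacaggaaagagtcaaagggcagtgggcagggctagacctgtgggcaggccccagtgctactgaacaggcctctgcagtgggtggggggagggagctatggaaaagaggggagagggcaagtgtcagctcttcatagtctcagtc
Awat2, first start, chrX:100442718-100442967, minus strand: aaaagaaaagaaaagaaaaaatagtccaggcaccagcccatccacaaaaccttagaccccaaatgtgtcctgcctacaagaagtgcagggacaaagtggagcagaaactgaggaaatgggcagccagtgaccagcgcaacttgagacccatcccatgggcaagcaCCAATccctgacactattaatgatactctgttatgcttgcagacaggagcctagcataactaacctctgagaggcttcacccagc
Awat2, second start, chrX:100412588-100412837, minus strand: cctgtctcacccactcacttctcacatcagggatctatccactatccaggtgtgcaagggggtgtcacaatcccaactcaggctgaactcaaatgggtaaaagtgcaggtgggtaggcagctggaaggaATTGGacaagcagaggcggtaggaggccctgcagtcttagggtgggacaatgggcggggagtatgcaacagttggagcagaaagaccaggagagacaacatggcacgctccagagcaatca
Scd3, chr19:44203038-44203287, plus strand: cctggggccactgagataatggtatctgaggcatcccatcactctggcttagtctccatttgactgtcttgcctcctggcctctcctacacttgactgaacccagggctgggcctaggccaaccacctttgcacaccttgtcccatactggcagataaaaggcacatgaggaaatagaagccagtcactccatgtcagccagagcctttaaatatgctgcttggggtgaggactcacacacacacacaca
Soat1, chr1:156474329-156474578, minus strand: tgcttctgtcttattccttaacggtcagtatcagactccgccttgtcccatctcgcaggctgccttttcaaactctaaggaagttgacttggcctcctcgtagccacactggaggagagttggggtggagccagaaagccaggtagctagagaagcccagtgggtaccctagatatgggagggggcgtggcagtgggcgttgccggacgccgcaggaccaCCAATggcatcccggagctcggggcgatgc
Far2, chr6:148047166-148047415, plus strand: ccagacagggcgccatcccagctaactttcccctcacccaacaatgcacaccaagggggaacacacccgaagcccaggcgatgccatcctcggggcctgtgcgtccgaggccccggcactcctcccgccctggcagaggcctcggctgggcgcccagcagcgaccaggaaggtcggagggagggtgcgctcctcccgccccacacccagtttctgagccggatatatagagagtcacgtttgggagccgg

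The windows were searched on both strands for TATAAA (the TATA box), CCAAT (the CCAAT box), AGGTCA (a nuclear receptor site), the direct repeat of that site that PPAR and RXR bind, CACGTG (an E-box), TCACNCCAC (a sterol response element) and GTGAAAG (a Blimp1 site). Of this set only CCAAT matched in the windows of the 8 genes searched, which left out Elovl3 and Mc5r. It lay 85 bases before the first start of Awat2, 30 bases before that of Soat1 and, as ATTGG on the opposite strand, 121 bases before the second start of Awat2 and 31 bases before that of Prdm1. Of 32851 windows of the same length, 33.8% held CCAAT, while 12.4% held the TATA box, 14.0% the nuclear receptor site, 6.02% the E-box, 3.57% the Blimp1 site, 1.05% the sterol response element and 0.0335% the direct repeat. A match describes letters in the window and not a bound site.

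Imiquimod moved the 10 genes in both directions. In IMQ against mock skin, Elovl3, Soat1, Far2 and Prdm1 rose and Awat2, Scd3 and Mc5r fell, while Awat1, Dgat2l6 and Krt79 did not pass the test. A gene is counted as changed where limma's adjusted p over all 26423 probes was under 0.05. That made 7 of 10 genes, 4 higher and 3 lower, beside 53.6% of all probes called in either direction, 24% higher and 29.6% lower. At an adjusted p under 0.01 the counts were 6 genes beside 39% of all probes, and with a change of at least 2-fold as well as p under 0.05 they were 3 genes beside 13.5%. The arrays of both groups did not overlap for 8 genes, beside 68% of all probes. The median difference of the 10 genes was 0.18 log2 units, beside -0.04 for all probes.

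With vanillin, 4 genes were higher than in IMQ skin (Awat1, Awat2, Scd3 and Elovl3) and 2 were lower (Soat1 and Far2). The 6 of 10 genes called compare with 41.2% of all probes called in either direction, 24.3% higher and 17% lower. At an adjusted p under 0.01, 4 genes were called beside 20.7% of all probes, and with at least 2-fold, 0 genes beside 4.78%. The groups did not overlap for 8 genes, beside 58.5% of all probes. Against mock skin, vanillin skin had 5 genes called, with Awat1 and Elovl3 higher and Awat2, Scd3 and Mc5r lower, beside 26.7% of all probes, 11.9% higher and 14.7% lower. Here 5 genes passed an adjusted p under 0.01 beside 16% of all probes, 2 passed with at least 2-fold beside 4.48%, and 5 had groups that did not overlap beside 37.8%. The median differences were 0.15 log2 units against IMQ and 0.17 against mock skin, beside 0.03 and 0.01 for all probes. Each pair of comparisons shares 3 arrays, so their values stand side by side here and are not independent of each other.

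**Figure D1:**
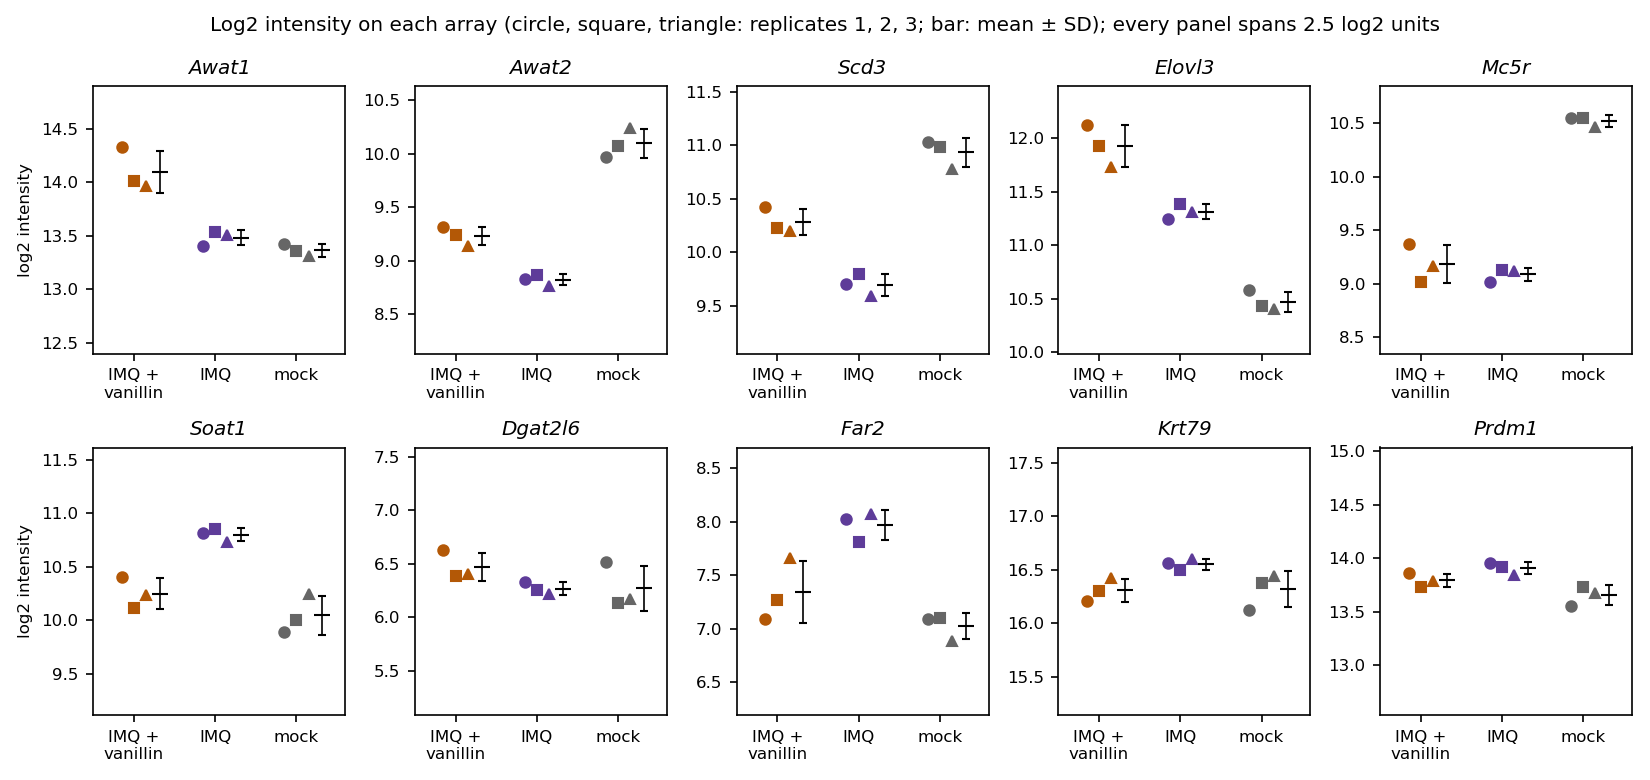
Log2 intensity (vertical axis) of each of the 10 genes on every array, in vanillin, IMQ and mock skin, in panels of equal span centred on each gene; symbols are the 3 replicates and bars the mean ± SD. Awat2, Scd3 and Mc5r lie lower in IMQ than in mock skin on every array, and Elovl3 is highest in vanillin skin, at 11.73 to 12.12.

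The synthesis of wax esters begins with the fatty alcohol. Far2, a fatty acyl-CoA reductase that makes fatty alcohols, had log2 intensities of 7.09, 7.27 and 7.66 in vanillin skin, 8.02, 7.81 and 8.07 in IMQ skin, and 7.09, 7.10 and 6.89 in mock skin. IMQ arrays were above every array of the other groups, and vanillin arrays reached down to the mock range. Far2 rose 1.92-fold in IMQ against mock skin, a log2 difference of 0.94 ± 0.15 (SE, adjusted p = 0.000925). It was 1.54-fold lower in vanillin than in IMQ skin (-0.63 ± 0.15, adjusted p = 0.0121), and without IMQ replicate 3 that difference was -0.57 with an adjusted p of 0.0504. Against mock skin the vanillin difference of 0.32 ± 0.15 did not pass (adjusted p = 0.169, 95% interval -0.03 to 0.66). The probe was dim, with a mean level at the 26.6th percentile of all probes.

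The acyltransferases Awat1 and Awat2 both esterify fatty alcohols to waxes, and Awat2 also esterifies retinol. Awat1 had log2 intensities of 14.32, 14.01 and 13.96 in vanillin skin, 13.41, 13.54 and 13.50 in IMQ skin, and 13.43, 13.36 and 13.31 in mock skin. The 3 vanillin arrays stood above all others, and the IMQ and mock arrays overlapped. It was 1.53-fold higher in vanillin than in IMQ skin (0.62 ± 0.11, SE, adjusted p = 0.00378) and 1.66-fold higher than in mock skin (0.73 ± 0.11, adjusted p = 0.00135). The difference of IMQ from mock skin was 0.12 ± 0.11 with a 95% interval of -0.13 to 0.37 (adjusted p = 0.391).

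Awat2 stood at 9.31, 9.24 and 9.14 in vanillin skin, 8.83, 8.87 and 8.77 in IMQ skin, and 9.97, 10.07 and 10.24 in mock skin, in log2 intensity. The 3 groups did not overlap, with vanillin skin between the others. Awat2 fell 2.42-fold in IMQ against mock skin (-1.28 ± 0.10, SE, adjusted p = 1.93e-05). It was 1.33-fold higher in vanillin than in IMQ skin (0.41 ± 0.10, adjusted p = 0.0109) and 1.82-fold lower than in mock skin (-0.87 ± 0.10, adjusted p = 0.000259). Of the neighbouring family members on the X chromosome, Awat1 was higher in vanillin than in mock skin and Awat2 lower.

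Dgat2l6, the third family member of that stretch, had a dim probe at the 12.8th percentile of all probes. Its log2 intensities were 6.62, 6.39 and 6.40 in vanillin skin, 6.33, 6.25 and 6.21 in IMQ skin, and 6.51, 6.13 and 6.17 in mock skin. The mock arrays spread across most of the range of the others, with mock replicate 1 apart from replicates 2 and 3. No comparison passed: the adjusted p was 0.979 for IMQ against mock skin, 0.209 for vanillin against IMQ skin and 0.275 for vanillin against mock skin. Without mock replicate 1 the difference of vanillin from mock skin was 0.32 (adjusted p = 0.0436), against 0.20 ± 0.12 with it.

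Soat1 (acyl-CoA:cholesterol acyltransferase) makes sterol esters. It had log2 intensities of 10.40, 10.11 and 10.23 in vanillin skin, 10.81, 10.85 and 10.73 in IMQ skin, and 9.89, 10.002 and 10.24 in mock skin. IMQ arrays were above every other array, and vanillin and mock arrays overlapped. Soat1 rose 1.69-fold in IMQ against mock skin (0.75 ± 0.12, SE, adjusted p = 0.000742) and was 1.46-fold lower in vanillin than in IMQ skin (-0.55 ± 0.12, adjusted p = 0.00713). Its vanillin difference from mock skin of 0.20 ± 0.12 did not pass (adjusted p = 0.244, 95% interval -0.06 to 0.47).

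Scd3 is the stearoyl-CoA desaturase of mouse skin that acts mainly on shorter saturated acids. Its log2 intensities were 10.43, 10.22 and 10.20 in vanillin skin, 9.71, 9.80 and 9.59 in IMQ skin, and 11.04, 10.99 and 10.78 in mock skin. As with Awat2, vanillin arrays lay between the other groups without overlap. Scd3 fell 2.36-fold in IMQ against mock skin (-1.24 ± 0.11, SE, adjusted p = 3.88e-05), was 1.5-fold higher in vanillin than in IMQ skin (0.59 ± 0.11, adjusted p = 0.00425) and 1.57-fold lower in vanillin than in mock skin (-0.65 ± 0.11, adjusted p = 0.00241).

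Elovl3, an elongase of very long chain fatty acids, is made in sebaceous glands and in brown fat, and mice without it have sparse hair and altered skin lipids. It had log2 intensities of 12.12, 11.93 and 11.73 in vanillin skin, 11.25, 11.38 and 11.31 in IMQ skin, and 10.58, 10.43 and 10.40 in mock skin. The groups did not overlap, with vanillin skin highest and mock skin lowest. Elovl3 rose 1.79-fold in IMQ against mock skin (0.84 ± 0.11, SE, adjusted p = 0.00035), and was 1.53-fold higher in vanillin than in IMQ skin (0.61 ± 0.11, adjusted p = 0.00433) and 2.74-fold higher than in mock skin (1.45 ± 0.11, adjusted p = 3.9e-05). Of the brown adipocyte markers beside it, 2 rose and 1 fell of 6 in IMQ against mock skin, 2 rose and 0 fell in vanillin against IMQ skin, and 3 rose and 0 fell in vanillin against mock skin. In that order the called shares were 50%, 33.3% and 50% of the 6, beside 53.6%, 41.2% and 26.7% of all probes. The summed intensity of the brown adipocyte markers was 22103 to 23581 in vanillin, 23020 to 23318 in IMQ and 22511 to 28767 in mock skin, with the Ucp1 probe, the defining marker of brown fat, at the 17.5th percentile. The part of these cells in the Elovl3 result was not tested.

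The receptor Mc5r had log2 intensities of 9.37, 9.01 and 9.16 in vanillin skin, 9.02, 9.13 and 9.12 in IMQ skin, and 10.55, 10.55 and 10.46 in mock skin. All 6 imiquimod-treated arrays were below the mock arrays, and the vanillin and IMQ arrays overlapped. Mc5r fell 2.7-fold in IMQ against mock skin (-1.43 ± 0.10, SE, adjusted p = 1.64e-05) and was 2.53-fold lower in vanillin than in mock skin (-1.34 ± 0.10, adjusted p = 3.85e-05). The difference of vanillin from IMQ skin was 0.10 ± 0.10 with a 95% interval of -0.14 to 0.33 (adjusted p = 0.488). Among the 10 genes, the log2 difference of IMQ from mock skin was largest in size for Mc5r.

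Krt79 is a keratin of the upper hair follicle and of the duct that joins it to the gland, and Prdm1 encodes Blimp1, a transcriptional repressor found in the gland, in differentiating epidermis and in plasma and T cells. Krt79 was among the brightest probes, at the 99.4th percentile, with log2 intensities of 16.21, 16.30 and 16.42 in vanillin skin, 16.57, 16.50 and 16.60 in IMQ skin, and 16.13, 16.38 and 16.45 in mock skin. IMQ arrays were all above the others, and vanillin and mock arrays overlapped. The difference of IMQ from mock skin was 0.24 ± 0.11 (SE, adjusted p = 0.0905) and that of vanillin from IMQ skin -0.24 ± 0.11 (adjusted p = 0.0967), and neither passed; the 95% intervals were -0.01 to 0.48 and -0.49 to -0.00. Without mock replicate 1 the vanillin against IMQ difference passed (adjusted p = 0.0396).

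Prdm1 had log2 intensities of 13.86, 13.73 and 13.78 in vanillin skin, 13.96, 13.92 and 13.85 in IMQ skin, and 13.56, 13.74 and 13.68 in mock skin. IMQ arrays lay above mock arrays, while vanillin arrays overlapped with both. It rose 1.19-fold in IMQ against mock skin (0.25 ± 0.09, SE, adjusted p = 0.0354). That call was lost without mock replicate 1 (adjusted p = 0.0692), mock replicate 3 (0.0590) or any IMQ replicate (0.0620 to 0.128). Vanillin differed from IMQ skin by -0.11 ± 0.09 (adjusted p = 0.313) and from mock skin by 0.14 ± 0.09 (adjusted p = 0.287). Of 6 plasma cell markers 1 rose and 3 fell in IMQ against mock skin, and of 7 T cell markers 4 rose and 0 fell. Those were 66.7% and 57.1% of the lists, beside 53.6% of all probes. For the plasma cell marker Jchain the 2 probes were called in opposite directions. The brighter gave -1.44 in IMQ against mock skin and 0.78 in vanillin against IMQ skin, and the other 0.80 and -0.96. The summed T cell markers ran from 14193 to 14523 in vanillin, 13282 to 13850 in IMQ and 11760 to 12587 in mock skin, and the plasma cell markers from 115018 to 130382, 90975 to 95936 and 89333 to 105259 in the same groups. The sums and the counts did not run alike. In vanillin against IMQ skin 1 T cell marker rose and 3 fell (median -0.39), with 1 called without IMQ replicate 1 and 2 without IMQ replicate 2 or 3 or vanillin replicate 1, although the sum was higher in vanillin skin. In vanillin against mock skin 1 plasma cell marker rose and 4 fell (median -0.35), and in vanillin against IMQ skin 2 rose and 1 fell (median 0.03). Over all probes, 26.7% and 41.2% were called in those comparisons. The part of these cells in the Prdm1 result was not tested.

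**Figure D2:**
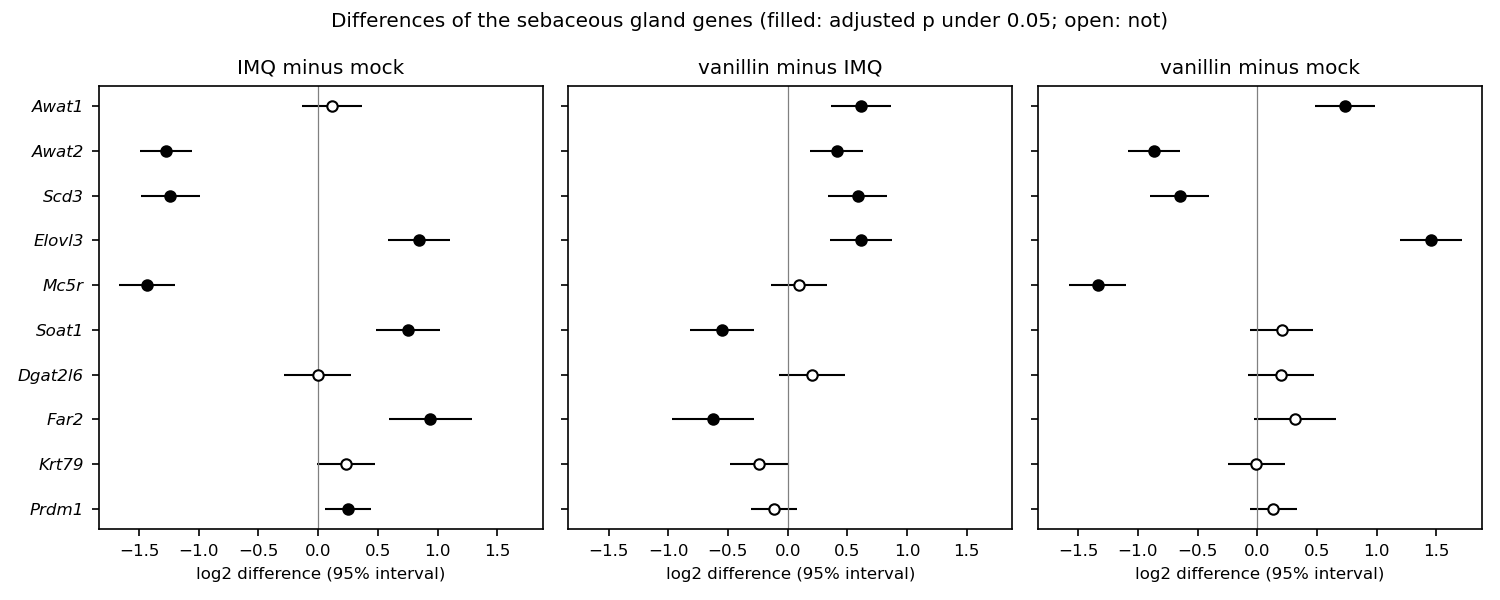
Log2 differences of the 10 genes (horizontal axis) with 95% intervals in IMQ against mock, vanillin against IMQ and vanillin against mock skin; filled points passed an adjusted p under 0.05. Mc5r, Awat2 and Scd3 lie farthest to the left in IMQ against mock skin, at -1.43, -1.28 and -1.24, and Elovl3 farthest to the right in vanillin against mock skin, at 1.45.

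The arrangement of the 10 genes over the 9 arrays can be described by Pearson's r, with no test, since the arrays fall into 3 groups. Scd3 and Awat2 had r = 0.95, Mc5r and Awat2 0.95 and Mc5r and Scd3 0.90, while Elovl3 and Awat1 had 0.89 and Soat1 and Prdm1 0.89. Far2 and Soat1 had 0.80, and each ran opposite to Scd3, at -0.91 for Far2 and -0.89 for Soat1. Genes with names of predicted or clone type were passed over, which left 16555 genes to compare with each of the 10. Among these the patterns most like Awat2 were those of Cpne4 (0.997) and Gamt (0.997), and those most like Scd3 were E2f4 (0.998) and Afap1l1 (0.997). Mc5r was closest to Gpnmb (0.996) and Sct (0.995), Elovl3 to Stk35 (0.995) and Cemip (0.995), and Awat1 to Dio2 (0.985) and Tpp1 (0.984). Far2 was closest to Arhgap35 (0.996) and Nudt7 (0.996), and Soat1 to Sh3gl2 (0.985) and Ascl2 (0.984). For Krt79 the closest were Nat10 (0.979) and Gpc1 (0.975), for Prdm1 Bnip3l (0.977) and Nelfb (0.971), and for Dgat2l6 Foxl2 (0.949) and Mymx (0.941).

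Far1, the other fatty acyl-CoA reductase, rose 1.69-fold in IMQ against mock skin (0.76 ± 0.17, SE, adjusted p = 0.00456), and its difference of vanillin from IMQ skin was -0.43 ± 0.17 (adjusted p = 0.0679). Without mock replicate 1 or 3 that second difference passed (adjusted p = 0.00879 and 0.0367). Dgat1 and Dgat2 make triglycerides. Dgat1 was 1.35-fold higher in vanillin than in IMQ skin (0.43 ± 0.09, adjusted p = 0.00673) and 1.41-fold higher than in mock skin, with 0.07 ± 0.09 between IMQ and mock skin (adjusted p = 0.549). Dgat2 rose 1.32-fold in IMQ against mock skin (0.40 ± 0.11, adjusted p = 0.0125). Soat2, the second sterol acyltransferase, differed by 0.36 ± 0.21 in the same comparison and did not pass (adjusted p = 0.171), but passed without vanillin replicate 3 (0.0127), with only the arrays of both groups in the fit (0.0213) and with array weights (0.0168). Mogat1, which makes diacylglycerol, rose 1.44-fold (0.52 ± 0.12, adjusted p = 0.00588), and Mogat2 differed by 0.42 ± 0.47 (adjusted p = 0.486). The Mogat2 value depended on the setting, between 0.08 and 1.33 over the alternatives, and passed with array weights (1.33, adjusted p = 0.0071).

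None of the desaturase relatives of Scd3 passed the test in IMQ against mock skin, except Scd1 and Scd2 with array weights, at 0.27 and 0.13. Scd1, the main stearoyl-CoA desaturase of mouse sebaceous glands, had a probe at the 99.9th percentile and differed by -0.07 ± 0.19 in IMQ against mock skin (SE, adjusted p = 0.769). Scd2 differed by 0.08 ± 0.08 there (adjusted p = 0.419), and was 1.52-fold higher in vanillin than in IMQ skin (0.61 ± 0.08, adjusted p = 0.00159) and 1.61-fold higher than in mock skin. Scd4 differed by -0.02 ± 0.12 in IMQ against mock skin (adjusted p = 0.894). Scd genes are close in sequence, and whether their probes share signal was not tested.

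Of the elongases beside Elovl3, 4 rose in IMQ against mock skin. Elovl7 rose 4.99-fold (2.32 ± 0.20, SE, adjusted p = 3.21e-05), and its second probe by 1.09 log2 units. Elovl4, which makes the ultra-long acids of the skin barrier, rose 1.86-fold (0.90 ± 0.09, adjusted p = 6.18e-05; 1.49 by a second probe), Elovl1 1.62-fold (0.70 ± 0.12, adjusted p = 0.00129) and Elovl2 1.27-fold (0.34 ± 0.10, adjusted p = 0.0208). The Elovl2 call was lost without mock replicate 3 or IMQ replicate 1 or 2 (adjusted p = 0.0643, 0.0800 and 0.0644). Elovl6, which extends palmitate to stearate, fell 1.34-fold (-0.43 ± 0.11, adjusted p = 0.00845), and Elovl5 differed by -0.27 ± 0.17 (adjusted p = 0.198). In vanillin against IMQ skin Elovl4 differed by 0.05 ± 0.09 (adjusted p = 0.699), beside the rise of Elovl3. Elovl7 was 1.96-fold lower there by its brighter probe (-0.97 ± 0.20, adjusted p = 0.00578), while the second probe differed by -0.27 (adjusted p = 0.0842).

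**Figure D3:**
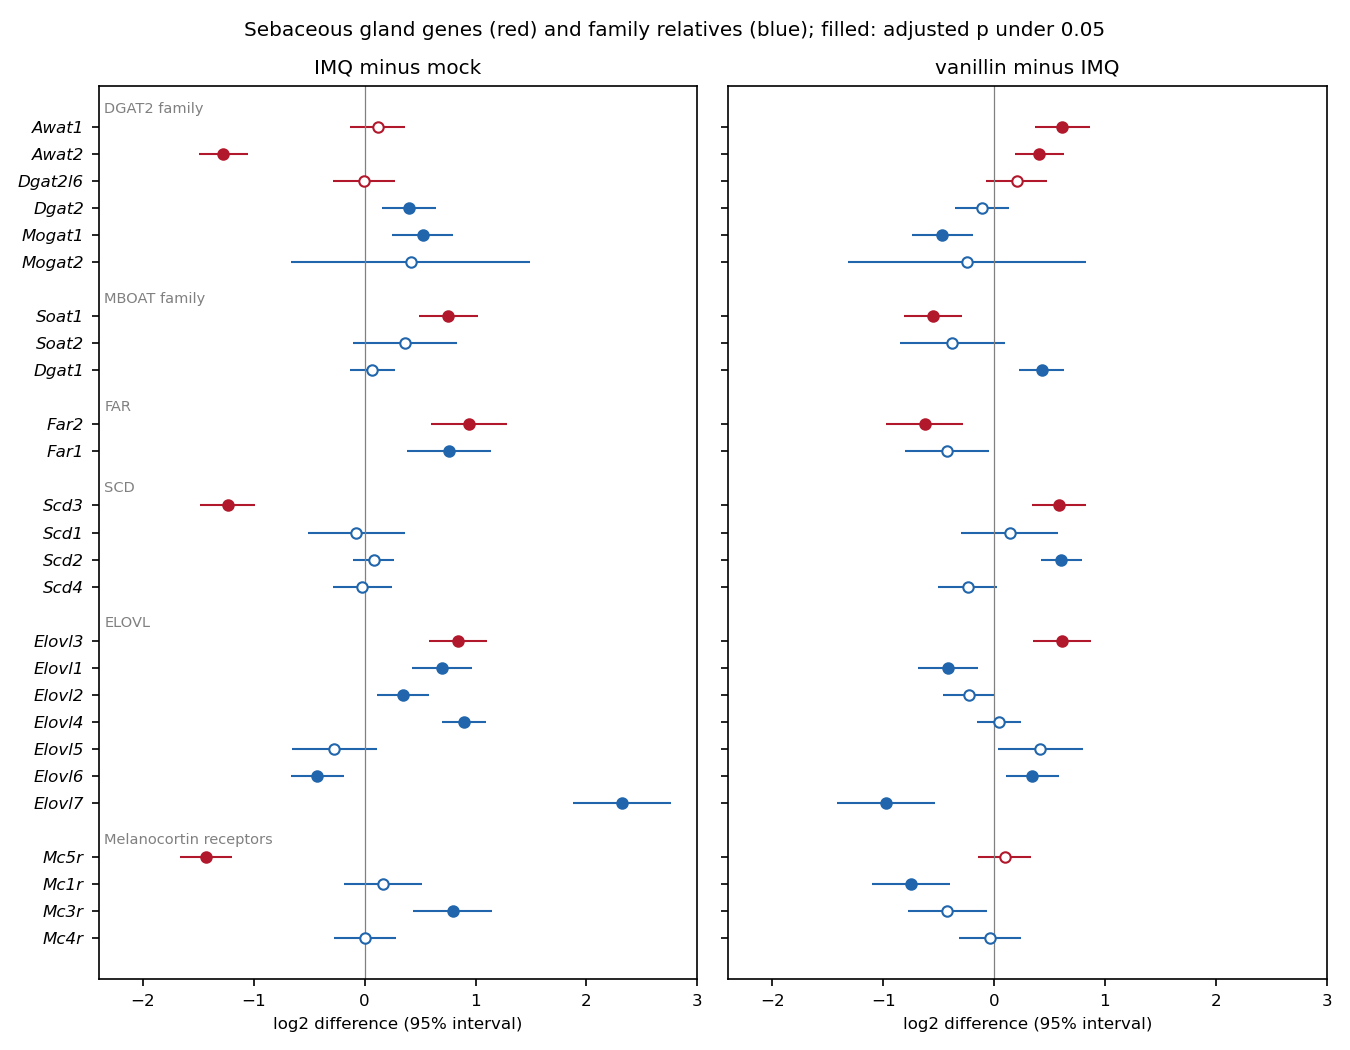
Log2 differences (horizontal axis) with 95% intervals of the sebaceous gland genes (red) and their family relatives (blue), in IMQ against mock and vanillin against IMQ skin; filled points passed an adjusted p under 0.05. Elovl7, at 2.32, has the highest value in IMQ against mock skin, and the desaturases Scd1, Scd2 and Scd4 lie between -0.07 and 0.08 there.

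Of 12 measured genes of glycerolipid and ester synthesis, 3 rose and 3 fell in IMQ against mock skin, with a median difference of 0.25. Those 6 of 12, and the 11 of 20 in fatty acid synthesis, are close to the 53.6% of all probes called, and the 5 of 12 and 8 of 20 called in vanillin against IMQ skin are close to 41.2%, so neither count sets these lists apart. Among them Gpam, which starts glycerolipid synthesis, fell 3.13-fold (-1.64 ± 0.17, SE, adjusted p = 0.0001), Lpin1, a phosphatidate phosphatase, 1.97-fold and Agpat2, an acyltransferase of the same route, 1.6-fold. A second probe of Lpin1 differed from the first in vanillin against IMQ skin, where the first gave 0.75 (adjusted p = 0.00168) and the second -0.34 (adjusted p = 0.0936). In vanillin against IMQ skin 4 of the 12 rose and 1 fell, while the median difference was -0.16, opposite in sign to the larger count. That count of 5 became 3 without IMQ replicate 1 or vanillin replicate 1 or 2, and 2 without IMQ replicate 3. It was 4 higher and 4 lower without vanillin replicate 3, and 4 higher and 6 lower with array weights. Of 20 measured genes of fatty acid synthesis, desaturation and elongation, 7 rose and 4 fell in IMQ against mock skin (median 0.11), 5 rose and 3 fell in vanillin against IMQ skin (median 0.06), and 6 rose and 2 fell in vanillin against mock skin (median 0.15). The last of these made 40% of the list, beside 26.7% of all probes. The vanillin against IMQ count of 8 became 3 without IMQ replicate 1 or 3, and 4 without IMQ replicate 2 or vanillin replicate 1 or 2. Fads2 and Fads3, fatty acid desaturases, fell 2.36-fold and 2.51-fold in IMQ against mock skin (-1.24 and -1.32 log2 units, and -0.72 by a second, dimmer probe of Fads3), and Acsl1, which activates fatty acids, rose 1.71-fold.

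Markers of sebocytes and lipid droplets were split as well. Of 15 measured genes 5 rose and 7 fell in IMQ against mock skin (median -0.16), 6 rose and 3 fell in vanillin against IMQ skin (median 0.20), and 4 rose and 5 fell in vanillin against mock skin (median -0.14). The called shares were 80%, 60% and 60% of the list, beside 53.6%, 41.2% and 26.7% of all probes. Mgst1, a microsomal glutathione transferase abundant in sebocytes, fell 2.04-fold in IMQ against mock skin (-1.03 ± 0.10, SE, adjusted p = 6.98e-05) and was 2.01-fold lower in vanillin than in mock skin, with 0.02 ± 0.10 between vanillin and IMQ skin (adjusted p = 0.871). Mgst2, its relative, rose 7.76-fold in IMQ against mock skin (2.96 ± 0.12, adjusted p = 7.63e-07). Fabp5, a fatty acid carrier of keratinocytes and sebocytes, rose 2.71-fold there. The droplet proteins Plin4 and Cidec fell 1.64-fold and 1.55-fold, and Apoe, a lipid carrier, 1.74-fold.

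Among 21 measured regulators of the gland, 5 rose and 8 fell in IMQ against mock skin (median -0.20), 7 rose and 3 fell in vanillin against IMQ skin (median 0.09), and 3 rose and 5 fell in vanillin against mock skin (median -0.18). The called shares were 61.9%, 47.6% and 38.1% of the list, beside 53.6%, 41.2% and 26.7% of all probes. Lrig1, a marker of the stem cells that feed the gland, fell 2.48-fold in IMQ against mock skin (-1.31 ± 0.10, SE, adjusted p = 2.1e-05). Srebf1, the transcription factor of fatty acid synthesis genes, fell 1.77-fold (-0.82 ± 0.09, adjusted p = 9.34e-05) and was 1.28-fold higher in vanillin than in IMQ skin (0.36 ± 0.09, adjusted p = 0.0116). Gli1, a target of hedgehog signalling, fell 2.03-fold, and was 1.68-fold higher in vanillin than in IMQ skin (0.75 ± 0.12, adjusted p = 0.00231). Fgfr2, a growth factor receptor of the epidermis, fell 1.56-fold. Ppard, a nuclear receptor of fatty acids, rose 2.71-fold (1.44 ± 0.11, adjusted p = 1.75e-05), and Cebpa 1.37-fold. Pparg, the nuclear receptor that drives sebocyte maturation, had a probe at percentile 2.1 and differed by -0.26 ± 0.41 (adjusted p = 0.627).

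In the melanocortin system, 4 of 10 measured genes rose and 3 fell in IMQ against mock skin (median 0.08), 3 rose and 2 fell in vanillin against IMQ skin (median -0.09), and 3 rose and 2 fell in vanillin against mock skin (median 0.03). The last count of 5 became 3 without any 1 of the mock arrays and 2 without vanillin replicate 1. In the order given, the called shares were 70%, 50% and 50% of the list, beside 53.6%, 41.2% and 26.7% of all probes. Mrap, an accessory protein of melanocortin receptors that fat cells also make, fell 1.76-fold in IMQ against mock skin (-0.81 ± 0.09, SE, adjusted p = 0.000137) and was 1.6-fold higher in vanillin than in IMQ skin (0.68 ± 0.09, adjusted p = 0.00158). Pomc, the precursor of the ligands of Mc5r, fell 1.55-fold with a dim probe at the 18.8th percentile, and Prcp, a peptidase that degrades melanocortin, rose 2.37-fold. Of the other receptors, Mc3r rose 1.74-fold in IMQ against mock skin (0.80 ± 0.16, adjusted p = 0.00263) and Mc1r, the receptor of pigment cells, differed by 0.17 ± 0.16 (adjusted p = 0.392; 0.0331 without mock replicate 3). Mc1r was 1.68-fold lower in vanillin than in IMQ skin (-0.75 ± 0.16, adjusted p = 0.00665), where Mc5r did not pass the test. The probes of Mc4r were dim, at percentiles 15.2 and 13.6, and disagreed in IMQ against mock skin. The brighter differed by 0.002 (adjusted p = 0.991) and the other by 1.08 (adjusted p = 0.019).

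Around the duct, where Krt79 is made, 5 of 12 upper follicle genes rose and 4 fell in IMQ against mock skin (median -0.08), and 3 rose and 6 fell in vanillin against mock skin (median -0.18), where 5 in place of 9 were called without any 1 of the IMQ arrays or vanillin replicate 1. The count of 5 called in vanillin against IMQ skin, 2 higher and 3 lower, was 3 without any 1 of the IMQ arrays or without vanillin replicate 1 or 2. Called genes were 75% of the list in IMQ against mock skin, 41.7% in vanillin against IMQ skin and 75% in vanillin against mock skin. Over all probes the shares were 53.6%, 41.2% and 26.7%. The adhesion receptor Cd44 rose 2.96-fold in IMQ against mock skin (1.57 ± 0.12, SE, adjusted p = 2.27e-05), and the defensin Defb6 1.84-fold. Krt75, a keratin of the follicle's companion layer, fell 1.66-fold, Krt80, a keratin of differentiating epithelia, 1.66-fold and Fst, a secreted activin inhibitor, 2.13-fold. Atp6v1c2, a proton pump subunit, rose 1.7-fold by its brighter probe, while its second probe differed by -0.05 (adjusted p = 0.816).

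**Figure D4:**
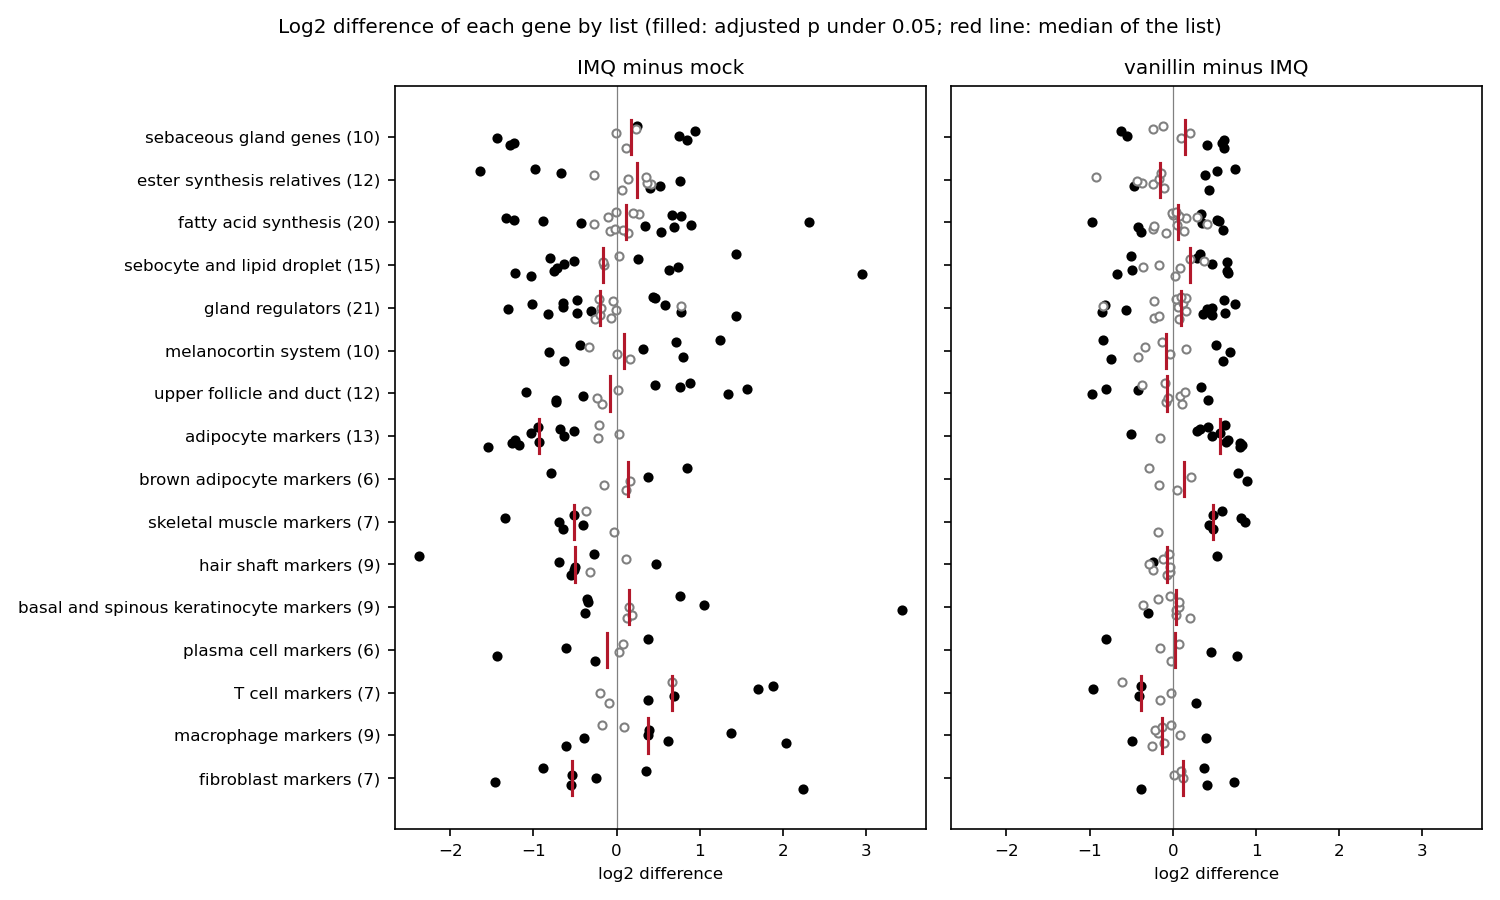
Log2 difference of each gene (points, horizontal axis) by list, in IMQ against mock and vanillin against IMQ skin; filled points passed an adjusted p under 0.05 and red lines are list medians. The adipocyte markers lie mostly left of 0 in IMQ against mock skin, with a median of -0.94, and right of 0 in vanillin against IMQ skin, with a median of 0.56.

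Markers of other cells moved with these groups. The counts called here and in the next paragraph stand beside 53.6% of all probes in IMQ against mock skin. For vanillin the shares of all probes were 41.2% against IMQ skin and 26.7% against mock skin. Of 13 adipocyte markers 0 rose and 10 fell in IMQ against mock skin, 11 rose and 1 fell in vanillin against IMQ skin, and 1 rose and 6 fell in vanillin against mock skin (4 called in place of 7 without IMQ replicate 1 or 3 or vanillin replicate 1). Their summed intensity was 388520 to 404394 in vanillin, 331208 to 332975 in IMQ and 527414 to 543584 in mock skin, the same order of groups as for Awat2 and Scd3. Adipoq, the defining adipocyte hormone, fell 2.92-fold in IMQ against mock skin and was 1.75-fold higher in vanillin than in IMQ skin. Of 7 skeletal muscle markers 0 rose and 5 fell in IMQ against mock skin, and 6 rose and 0 fell in vanillin against IMQ skin, with summed intensities of 331164 to 353742 in vanillin, 268112 to 274266 in IMQ and 335430 to 379260 in mock skin. Of 9 hair shaft markers 1 rose and 6 fell in IMQ against mock skin, and their sum was 763911 to 793121 in vanillin, 827147 to 832010 in IMQ and 1067630 to 1195780 in mock skin, so that both imiquimod groups lay below mock skin as for Mc5r.

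Keratinocyte markers of the basal and spinous layers ran the other way in sum, at 1226180 to 1321410 in vanillin, 1257830 to 1301220 in IMQ and 1013830 to 1020580 in mock skin. Of 9 such genes 0 rose and 1 fell in vanillin against IMQ skin, with 0 to 2 called when 1 array was left out. In vanillin against mock skin 4 rose and 3 fell, and in IMQ against mock skin 3 rose and 3 fell. In IMQ against mock skin Krt1, a keratin of spinous cells, rose 10.8-fold, while Krt15 fell, with a log2 difference of -0.38 (adjusted p = 0.012). Of 9 macrophage markers 5 rose and 2 fell in the same comparison, with sums of 72356 to 77400 in vanillin, 81995 to 84057 in IMQ and 64180 to 73083 in mock skin, with IMQ skin highest as for Soat1 and Far2. The counts did not follow the sum: 1 macrophage marker rose and 1 fell in vanillin against IMQ skin, with 0 to 3 called when 1 array was left out. In vanillin against mock skin 3 rose and 1 fell. Adgre1 and Itgam stood at 2.03 and 1.38 log2 units in IMQ against mock skin and 1.92 and 1.20 in vanillin against mock skin. Cd68 fell in both, by -0.60 and -0.86. Soat1 is also made by macrophages. Of 7 fibroblast markers 2 rose and 5 fell in IMQ against mock skin, with sums of 193675 to 201926 in vanillin, 184197 to 189897 in IMQ and 256320 to 275723 in mock skin. Like the adipocyte sums, these had the order of groups seen for Awat2 and Scd3. The part of any of these cells in the values of the 10 genes was not tested.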

How the data were processed

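RNA of 9 samples was labelled with Cy5, per the labels' protocols. The deposited table holds linear probe intensities that the authors had brought to near equal distributions between arrays, so it cannot show a change of total signal. Limma is named without a version in the submitters' processing notes, and for the scanner and background correction the sources used here give nothing. From the deposited intensities, values under 1 were set to 1 and log2 was taken. One limma fit (version 3.58.1, R 4.3.3) with group coefficients took in all 9 arrays, with eBayes and two-sided tests. Benjamini-Hochberg adjustment ran over all 26423 probes of a comparison, and adjusted p under 0.05 made a call. Differences are in log2 units. Names came from the platform annotation: 18213 probes had a current symbol, 2126 an older one that was updated through GRCm38.p6, 38 kept theirs and 6046 had none. A gene with several probes is represented by the brightest.

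The 10 genes and the related lists were chosen with earlier results of these data known. Named are all 10 genes, up to 6 genes with the smallest p of each pathway list, fixed family relatives, up to 3 markers of each cell list and the 2 genes most like each of the 10. Some listed genes had no probe under their symbol. The fit was tested on simulated data. Alternatives changed the scaling, offset, dim-probe filter, spread prior, array weights, probe rule, threshold, block and arrays.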

Additional observations from a re-analysis of the deposited data

How the results depend on the processing

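Over the 10 genes, 524 of the refitted values stayed as in the main fit, whether called or not called, 6 gained a call and 7 lost one. Of the values called in either fit, 0 reversed. Direction was not always held where neither fit made a call, as for Dgat2l6 in IMQ against mock skin (-0.07 to 0.16). Requiring at least 2-fold left 3 of the 10 genes called in IMQ against mock skin, 0 in vanillin against IMQ skin and 2 in vanillin against mock skin. Leaving out each array gave 6 to 7, 5 to 7 and 5 to 6 genes in those comparisons. Array weights added Krt79 in IMQ against mock skin (adjusted p = 0.00712) and vanillin against IMQ skin (0.00387), and Dgat2l6 in vanillin against mock skin (0.0219). With array weights more of the array was called: 19830, 16208 and 10260 of 26423 probes in those comparisons, beside 14157, 10898 and 7045 in the main fit. A robust prior with a trend added Krt79 in IMQ against mock skin (0.0496). The labels do not say whether replicate numbers pair the samples, and 3 arrays per group are too few to decide it. Deviations of same-numbered arrays correlated at -0.265 to 0.222, beside -0.180 to 0.261 for other numbers. Of 18 comparisons of an array with another group, 6 were highest for the same number. With the replicate number as a block, 6, 6 and 5 of the 10 genes were called, since Prdm1 in IMQ against mock skin was not (0.0739). That fit called 13609, 9968 and 6224 of all probes. Over all probes, 1 call count moved by over 1.5 times without an array: the 10898 of vanillin against IMQ skin became 6923 without IMQ replicate 1 and 6576 without IMQ replicate 3. An adjusted p under 0.01 left 5457 in vanillin against IMQ skin and 4231 in vanillin against mock skin, and 2-fold left 3566, 1263 and 1185. Among related genes, alternatives added after seeing the data reversed 2 values: Scd1 in IMQ against mock skin was 0.27 with array weights (adjusted p = 0.0434), and Jchain in vanillin against IMQ skin was -0.0904 as a mean over probes that disagreed. Leaving out the dimmest 25% of probes removed Dgat2l6 alone of the 10 genes; for it, Far2 and Pparg the low signal limits what can be detected. Groups of 3 arrays were too small for a search for outlying arrays.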
